A study of Mus musculus with 13 samples.

Results

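The genes described here are 9 transcription factors that help set hepatocyte identity, namely Hnf4a, Foxa1, Foxa2, Foxa3, Cebpa, Onecut1, Onecut2, Prox1 and Nr5a2. They were named as a set by their known role in the liver, not by a value measured here, and are 9 of the 19537 genes that the arrays measured with a probe set assigned to a single gene symbol. Messenger RNA was measured on 13 arrays of cells from naive C57BL/6 mice aged 6 to 10 weeks, and no treatment or engineered allele was named for any group. Kupffer cells (macrophages resident in the liver), hepatocytes (its parenchymal cells) and liver sinusoidal endothelial cells (LSEC, the lining of the blood capillaries) were taken freshly isolated, with 3 arrays each. Hepatic stellate cells (HSC, the vitamin A-storing pericytes) were cultured in DMEM with fetal bovine serum and harvested at day 1 (2 arrays), day 7 (a single array) and day 14 (a single array). A comparison of HSC with the other populations is therefore also one of cultured with freshly isolated cells, and these cannot be told apart. The labels call the arrays of a population biological replicates without saying whether each came from its own animals, so p-values measure only the spread between these arrays, which may be partly technical.

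These factors work as a network. HNF4A, a nuclear receptor, binds the promoters of many genes for lipoproteins, clotting factors and drug-metabolising enzymes. The FOXA forkhead proteins open packed chromatin so that other factors can bind. CEBPA, a basic leucine zipper protein, drives metabolic genes in hepatocytes and is also a lineage factor of myeloid blood cells. ONECUT1 (also called HNF6) and ONECUT2 are cut-homeodomain proteins that act in hepatocytes and in bile duct development. PROX1 is a homeodomain protein of hepatocytes that also specifies lymphatic endothelium. NR5A2 (LRH-1) is a nuclear receptor that controls bile acid and cholesterol genes. Several of these proteins are known to bind one another's promoters, so the sequence just before their transcription starts is of interest.

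Below are the 250 bases before each RefSeq start of the genes whose profiles differ most in what follows: Hnf4a, which was high on the hepatocyte arrays, Cebpa, which was also high in Kupffer cells, and Nr5a2, which was also high in LSEC. The windows come from RefSeq's promoter table on GRCm38.p6 and read 5′ to 3′ along the gene's strand, ending at the base before the start. Capitals mark exact matches, on either strand, to 6 short motifs. The repeat unit of the HNF1 element was searched as GTTAAT. The site of the cut-homeodomain proteins ONECUT1 and ONECUT2 was searched as ATTGATT. The forkhead site bound by FOXA proteins was searched as TGTTTAC. The site of the C/EBP proteins was searched as TTGCNNAA, where N is any base, so a match need not be palindromic. The extended monomer site of NR5A2 was searched as AAGGTCA. The direct-repeat core of the HNF4A site was searched as CAAAGTC.
Hnf4a start 1, chr2:163506607-163506856, plus strand: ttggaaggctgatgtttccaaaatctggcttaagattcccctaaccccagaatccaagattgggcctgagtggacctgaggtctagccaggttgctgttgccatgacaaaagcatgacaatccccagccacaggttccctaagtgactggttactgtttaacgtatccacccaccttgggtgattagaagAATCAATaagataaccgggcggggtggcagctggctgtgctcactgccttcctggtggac
Hnf4a start 2, chr2:163546905-163547154, plus strand: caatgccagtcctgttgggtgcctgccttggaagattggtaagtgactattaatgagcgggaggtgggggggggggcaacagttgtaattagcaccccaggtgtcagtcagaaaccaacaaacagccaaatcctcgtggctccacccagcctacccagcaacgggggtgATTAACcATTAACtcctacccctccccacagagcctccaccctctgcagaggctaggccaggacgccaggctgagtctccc
Cebpa, chr7:35119043-35119292, plus strand: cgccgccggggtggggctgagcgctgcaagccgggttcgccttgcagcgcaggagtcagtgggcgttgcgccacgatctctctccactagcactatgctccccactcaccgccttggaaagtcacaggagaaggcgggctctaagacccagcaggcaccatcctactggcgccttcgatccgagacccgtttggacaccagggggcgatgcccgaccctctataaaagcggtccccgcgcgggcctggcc
Nr5a2 start 1, chr1:136960449-136960698, minus strand: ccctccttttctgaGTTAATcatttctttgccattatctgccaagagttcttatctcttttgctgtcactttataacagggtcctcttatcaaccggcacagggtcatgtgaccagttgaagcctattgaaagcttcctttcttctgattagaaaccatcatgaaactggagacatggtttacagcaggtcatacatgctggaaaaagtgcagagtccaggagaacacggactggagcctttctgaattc
Nr5a2 start 2, chr1:136953631-136953880, minus strand: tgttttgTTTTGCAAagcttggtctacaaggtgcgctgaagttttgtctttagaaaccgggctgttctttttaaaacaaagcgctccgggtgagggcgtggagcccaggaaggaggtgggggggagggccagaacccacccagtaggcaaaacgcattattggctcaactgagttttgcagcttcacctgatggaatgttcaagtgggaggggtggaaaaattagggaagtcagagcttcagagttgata

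The first Hnf4a start had an ONECUT match on the minus strand with its leftmost base 60 bases before the start. The second Hnf4a start had 2 HNF1 repeat units on the minus strand, beginning 81 and 74 bases before it. For Nr5a2, start 1 had an HNF1 repeat unit 236 bases before it on the plus strand. Start 2 of Nr5a2 had a C/EBP match 243 bases before it on the minus strand. The Cebpa window held none of the 6 motifs. Across the 8 genes with an entry (13 starts), the other matches lay before Foxa1 and Foxa2. They were a FOXA motif 141 bases before the Foxa1 start and an ONECUT motif 213 bases before Foxa2 start 1. An HNF1 repeat unit lay 176 bases before Foxa2 start 3. No matches overlapped. Over all 32851 windows of the table, the share holding a match was 6.43% for the HNF1 repeat unit, 2.61% for ONECUT and 3.17% for FOXA. It was 9.56% for C/EBP, 4.08% for NR5A2 and 3.84% for HNF4. A match is a description of letters and was not tested as a binding site. Each gene had 1 probe set with a single symbol, so the arrays do not tell which start was used. Hnf4a and Foxa2 lie on chromosome 2, Foxa3 and Cebpa on 7, Prox1 and Nr5a2 on 1, Foxa1 on 12, Onecut1 on 9 and Onecut2 on 18.

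The arrays matched their labels by defining markers. The summed intensity of 14 hepatocyte markers was 177300 to 190900 on the hepatocyte arrays, 10480 to 14030 on Kupffer arrays, 1884 to 2038 on LSEC arrays and 12840 to 23070 on the 1-day HSC arrays. Lists of 10 Kupffer, 10 LSEC and 10 stellate markers were likewise highest in their own population, at 86630 to 89670, 47800 to 66290 and 25180 to 38020. Biliary markers (6 measured of 8) summed to 1945 to 3189 on hepatocyte arrays and 803.6 to 1585 elsewhere. Most of that sum was Sox9 (1294, 1840 and 2514 in hepatocytes), which was the 1 biliary marker above the pooled median of all values there. The duct keratin Krt7 read 185.0 to 206.0 in hepatocytes, within its range of 180.4 to 259.3 elsewhere. Epcam, also on the biliary list, read 168.9 to 175 in hepatocytes, above its range of 74.82 to 118.5 elsewhere. The part of biliary cells in the hepatocyte values was not tested. In such bulk RNA, fewer cells of a type and less RNA per cell cannot be told apart. Values below are the deposited intensities on a linear scale. They are compared within a gene only, because intensities of different probe sets are not on a common scale. Differences are on the log2(intensity + 83) scale, which understates changes of dim genes, and a gene was called when limma's adjusted p was below 0.05 and the difference was at least 1.

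Of the 9 genes, 6 were called higher in hepatocytes against each of the other 3 populations: Hnf4a, Foxa1, Foxa3, Onecut1, Onecut2 and Prox1. Of all 12081 genes tested, 6.8% were. None of the 9 was lower against all 3, as 2.72% of all genes were. Against Kupffer cells alone, 7 of 9 were called higher in hepatocytes (12% of all genes), with Nr5a2 as the added gene. Against LSEC, 7 of 9 were (10% of all genes), and against 1-day HSC 7 of 9 (10.1%), with Cebpa as the added gene in both. None of the 9 was called lower in hepatocytes in these comparisons, where 13.7%, 12.5% and 12.3% of all genes were. The median difference over the 9 genes was 1.64, 1.74 and 1.68, beside 0.02, -0.10 and -0.08 over all genes. A limma adjusted p below 0.05 alone was common, held by 69%, 69.6% and 66.9% of all genes in these comparisons. It was held by 63.7% between Kupffer cells and LSEC. Against 1-day HSC it was held by 65.7% for Kupffer cells and 47.6% for LSEC. All 9 passed the filter on low values, but Foxa1, Foxa2, Foxa3, Onecut1 and Prox1 passed only through the hepatocyte arrays. The counts and medians above therefore describe the set and are not support for a difference of it. The p-values given below for Foxa1, Foxa2, Foxa3, Onecut1 and Prox1 in hepatocyte comparisons carry the same limit.

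**Figure D1:**
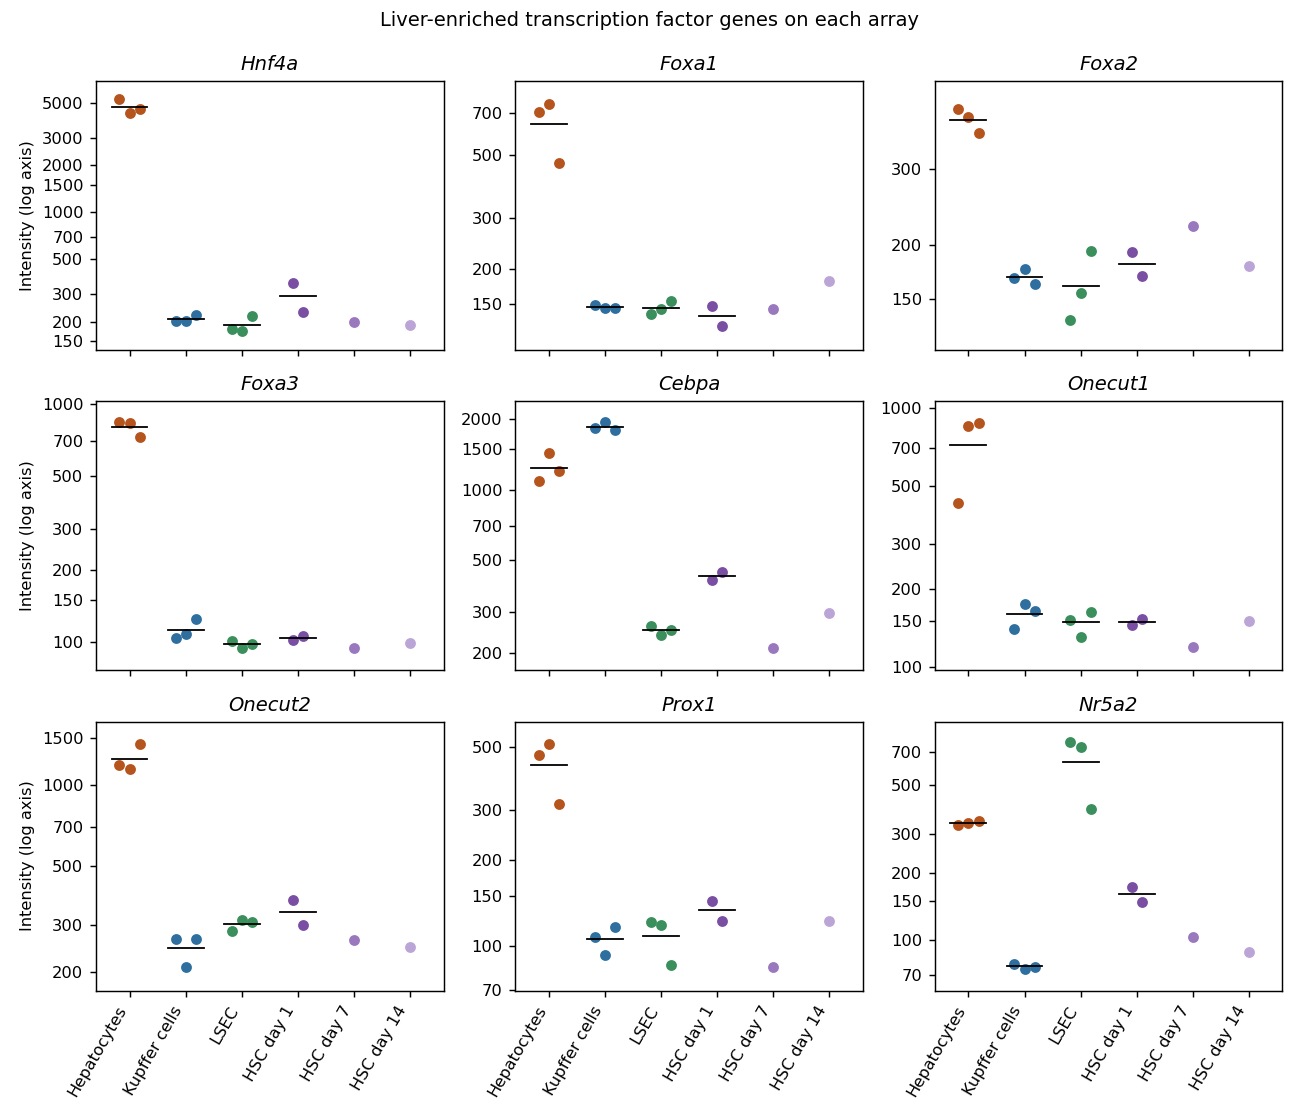
Deposited intensity (log axis) of each of the 9 genes on each of the 13 arrays, by population and, for HSC, day of culture. Points are arrays and bars are group means where a group has more than 1 array. In 7 panels the 3 hepatocyte points lie above all others, Cebpa is highest on the Kupffer arrays and Nr5a2 on the LSEC arrays.

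Hnf4a, the nuclear receptor at the head of the network, had the widest separation. Its intensity was 5277, 4329 and 4534 on the hepatocyte arrays. It was 201.4, 203.5 and 220.1 on Kupffer arrays, 180.5, 173.3 and 216.2 on LSEC arrays, and 354.1 and 232.3 on the 1-day HSC arrays. The hepatocyte arrays were far above the rest, with no overlap. The mean in hepatocytes, 4713 ± 499 (SD, n = 3), was 22.6 times that in Kupffer cells, 24.8 times that in LSEC and 16.1 times that in 1-day HSC. The log2 differences were 4.04 (SE 0.12), 4.13 (SE 0.12) and 3.69 (SE 0.134), with limma adjusted p of 1.6e-11, 2.6e-11 and 2.9e-10. Among the others, 1-day HSC stood above Kupffer cells by 0.35 (adjusted p = 0.036) and above LSEC by 0.45 (adjusted p = 0.016), both under the minimum of 1. Without HSC replicate 1, the 354.1 array, the first became 0.11 (adjusted p = 0.5) and the second 0.21 (adjusted p = 0.26). That replicate also had the higher hepatocyte marker sum, 23070 against 12840, and the part of hepatocyte RNA in the HSC value was not tested. Kupffer cells and LSEC did not differ beyond their spread (95% interval of the difference -0.17 to 0.36).

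Among the forkhead factors, Foxa3 and Foxa1 were called in all 3 comparisons and Foxa2 in none. Foxa3, which in the liver takes part in the fasting response, read 840.1, 838.4 and 726.0 on the hepatocyte arrays. On the other 8 arrays of the 3 populations it ranged from 94.18 to 124.7. The hepatocyte arrays formed a group apart, and the other 3 populations did not differ from one another beyond their spread. The hepatocyte mean was 801.5 ± 65.4 (SD, n = 3), which was 7.15, 8.21 and 7.71 times the means of Kupffer cells, LSEC and 1-day HSC. Those lower means lay near 83, the pooled 20th percentile, and the values carry no detection calls, so these folds are approximate. The log2 differences were 2.18, 2.29 and 2.24, with limma adjusted p of 8.2e-11, 9.2e-11 and 4.8e-10.

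Foxa1, which shares with Foxa2 the opening of liver genes in the embryo, read 706.3, 751.8 and 469.4 on the hepatocyte arrays. Kupffer arrays read 148.6, 145.9 and 145.9, LSEC arrays 138.6, 145.0 and 154.7, and 1-day HSC arrays 147.5 and 126.0. Hepatocyte replicate 3 was the lowest of its group yet still above every other array. The differences were 1.64 against Kupffer cells, 1.64 against LSEC and 1.70 against 1-day HSC, with limma adjusted p of 1.6e-07, 2e-07 and 5.3e-07. Kupffer cells and LSEC did not differ beyond their spread, with an interval of -0.27 to 0.29 for the difference.

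Foxa2, the forkhead factor tied to lipid and bile acid handling, had the smallest hepatocyte excess of the 3. It read 412.3, 395.3 and 363.1 in hepatocytes, 167.2, 175.4 and 162.0 in Kupffer cells, 133.8, 154.3 and 193.9 in LSEC, and 192.5 and 169.1 in 1-day HSC. No array of another population reached the hepatocyte arrays. The hepatocyte mean was 2.32, 2.43 and 2.16 times the others, and the log2 differences were 0.91, 0.96 and 0.84. Their limma adjusted p were 2.1e-06, 1.5e-06 and 1.6e-05, but all 3 lay under the minimum of 1. The difference from LSEC reached 1.01 without hepatocyte replicate 3 and 1.06 without LSEC replicate 3. With a pseudocount of 1 in place of 83, all 3 differences passed, at 1.21, 1.29 and 1.11. Over all genes, every hepatocyte array lay above every array of the other 3 populations for 16.9%. Foxa2 was among the 7 of 9 genes of the set with that ordering, beside the 6 called. For Foxa1, Foxa2, Foxa3, Onecut1 and Prox1 only hepatocyte arrays were above the pooled median, so the ordering came with passing the filter. It is a description and not support for a difference.

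Both cut-homeodomain genes were called higher in hepatocytes against all 3 other populations. Onecut1 read 430.0, 858.4 and 876.7 in hepatocytes, so replicate 1 was below the other hepatocyte arrays. Kupffer cells read 140.7, 174.7 and 165.2, LSEC 151.8, 130.7 and 163.5, and 1-day HSC 145.2 and 153.6. The groups did not overlap, and the differences of 1.67 (SE 0.19), 1.74 (SE 0.19) and 1.74 (SE 0.212) had limma adjusted p of 5.5e-06, 4.3e-06 and 1.4e-05. The other 3 populations did not differ beyond their spread (LSEC against 1-day HSC, interval -0.47 to 0.46).

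Onecut2 read 1188, 1150 and 1430 in hepatocytes, and its replicates were tighter than those of Onecut1. It read 265.3, 208.3 and 266.3 in Kupffer cells, 284.5, 312.9 and 306.9 in LSEC, and 373.2 and 299.5 in 1-day HSC. The hepatocyte mean of 1256 ± 152 (SD, n = 3) was 5.09, 4.17 and 3.74 times those means. The log2 differences were 2.02, 1.80 and 1.68, with limma adjusted p of 3.5e-09, 1.5e-08 and 1.1e-07. Below hepatocytes the order ran 1-day HSC, LSEC and Kupffer cells. Neither neighbouring pair in that order differed beyond its spread, while 1-day HSC and Kupffer cells did (0.35, adjusted p = 0.022, under the minimum of 1).

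Prox1, a hepatocyte regulator that is also the defining gene of lymphatic endothelium, read 466.8, 508.5 and 314.1 in hepatocytes. LSEC, the endothelial population here, read 121.0, 118.3 and 85.88, Kupffer cells 107.4, 93.00 and 116.0, and 1-day HSC 143.9 and 122.3. LSEC did not stand above the non-endothelial cells: the interval of the Kupffer minus LSEC difference was -0.32 to 0.28. The hepatocyte excess was 1.43 over Kupffer cells, 1.41 over LSEC and 1.23 over 1-day HSC, with limma adjusted p of 1.1e-06, 1.4e-06 and 1.6e-05. With the pooled median as pseudocount these were 0.98, 0.96 and 0.86, so Prox1 was no longer called. A list of 5 measured lymphatic endothelial markers summed to 4250 to 7974 in LSEC, 7467 to 7674 in Kupffer cells, 6090 to 6307 in 1-day HSC and 738.2 to 883.6 in hepatocytes, so the sum did not set LSEC apart. Within it, Flt4, the receptor for lymphatic growth factors, read 3878, 3610 and 2213 in LSEC, and Sox18 read 1807, 1570 and 414.8. Pdpn and Mmrn1 ran the other way. Pdpn read 314.5, 238.2 and 230.8 in LSEC and 2287 and 2176 in 1-day HSC. Mmrn1 read 40.99, 34.75 and 33.51 in LSEC and 86.92 and 72.45 in 1-day HSC. The Kupffer sum was mostly Itga9 (6919, 6942 and 6810).

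**Figure D2:**
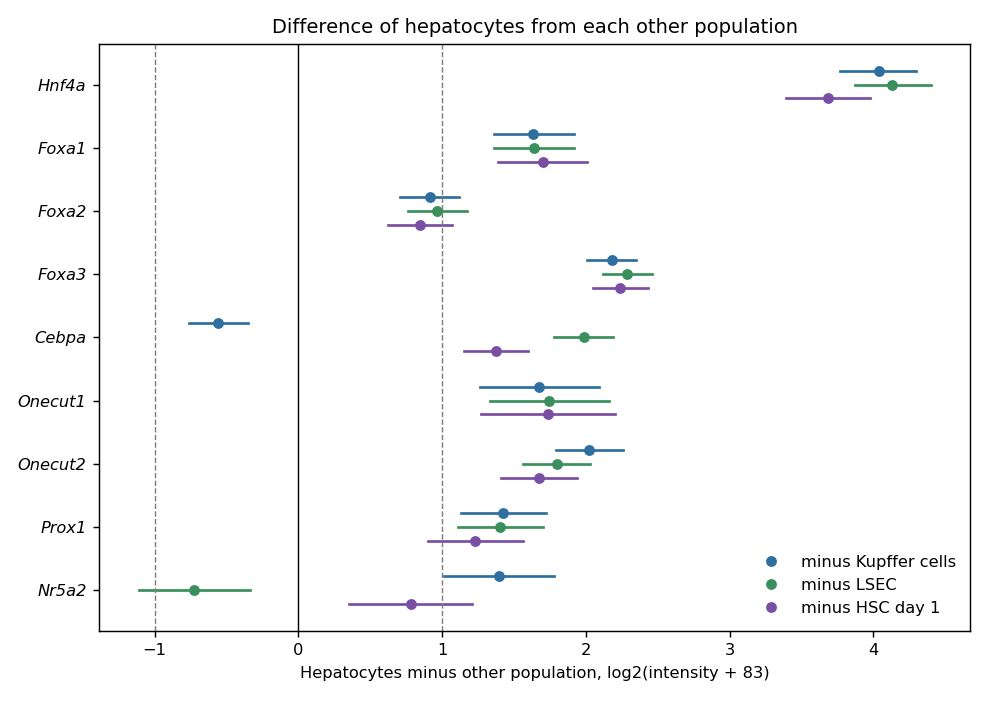
Difference between hepatocytes and each other population for the 9 genes on the log2(intensity + 83) scale, with 95% intervals from limma. Dashed lines mark the minimum of 1 in each direction. Hnf4a lies near 4 against all 3 populations, Foxa2 lies just under 1, and only Cebpa against Kupffer cells and Nr5a2 against LSEC lie left of 0.

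Cebpa was the only gene of the 9 whose highest level was in Kupffer cells. It read 1837, 1942 and 1796 in Kupffer cells and 1094, 1434 and 1205 in hepatocytes. LSEC read 261.0, 240.4 and 250.7, and 1-day HSC read 410.0 and 444.6. Every Kupffer array was above every hepatocyte array, and both populations were above LSEC and HSC without overlap. Kupffer cells exceeded LSEC by 2.54 (7.41 times, limma adjusted p = 1.4e-10) and 1-day HSC by 1.93 (4.35 times, adjusted p = 6.7e-09). Cebpa was thus the 1 gene of 9 called higher in Kupffer cells than in LSEC (9.54% of all genes) and the 1 of 9 called higher than in 1-day HSC (11.7%). Hepatocytes exceeded LSEC by 1.98 (4.96 times, adjusted p = 1.5e-09) and 1-day HSC by 1.37 (2.91 times, adjusted p = 1.9e-07). Between Kupffer cells and hepatocytes the ratio was 1.49, a log2 difference of 0.56 in favour of Kupffer cells with adjusted p = 0.00016, which is under the minimum of 1. The hepatocyte marker sum of the Kupffer arrays, 10480 to 14030, was mostly Trf (7407, 7633 and 7590) and Alb (3374, 1027 and 2292). The part of hepatocyte RNA in the Kupffer value of Cebpa was not tested.

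Below them, 1-day HSC were above LSEC for Cebpa by 0.61 (adjusted p = 0.00043), again under the minimum. The 1-day HSC array with the higher Cebpa value also had the higher Kupffer marker sum, 5292 against 3998, while LSEC arrays had 1489 to 1914. The part of Kupffer RNA in the HSC value of Cebpa was not tested.

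Nr5a2 was the only gene of the 9 whose highest level was in LSEC. It read 778.4, 741.1 and 387.9 there, so LSEC replicate 3 was well below the others. Hepatocytes read 331.0, 337.2 and 343.4, Kupffer cells 78.66, 74.29 and 76.29, and 1-day HSC 174.4 and 148.5. All 3 LSEC arrays were above all hepatocyte arrays, and Kupffer arrays were lowest. LSEC exceeded Kupffer cells by 2.12 (limma adjusted p = 4.2e-07) and 1-day HSC by 1.51 (3.94 times, adjusted p = 5.8e-05). All 3 Kupffer readings were below 83, the pooled 20th percentile, and the values carry no detection calls, so the size of a difference from Kupffer cells depends on the pseudocount and no fold is given. Nr5a2 was the 1 gene of 9 called lower in Kupffer cells than in LSEC (10.3% of all genes) and the 1 of 9 called higher in LSEC than in 1-day HSC (5.24%). None of the 9 was called lower in LSEC than in 1-day HSC (5.6% of all genes) or lower in Kupffer cells than in 1-day HSC (12.9%).

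The hepatocyte level of Nr5a2, 337.2 ± 6.2 (SD, n = 3), was above the Kupffer level (log2 difference 1.40, limma adjusted p = 1.4e-05), a call that was lost with the pooled median as pseudocount (0.90). Against 1-day HSC the hepatocyte excess was 0.78 (adjusted p = 0.0037), not called, and with a pseudocount of 1 it was 1.06. LSEC exceeded hepatocytes 1.89 times, a log2 difference of 0.72 with adjusted p = 0.0029, under the minimum of 1. Without LSEC replicate 3 the hepatocyte minus LSEC difference was -1 (adjusted p = 3.3e-07) and met the minimum. The LSEC marker sum followed the same order over the LSEC arrays as Nr5a2, at 66290, 63030 and 47800 for replicates 1 to 3, and the part of the share of LSEC RNA in this spread was not tested. Hepatocyte arrays had an LSEC marker sum of 2751 to 3771. Kupffer arrays had 14220 to 16600, most of it Cdh5 (10040, 9723 and 9141). Next on those arrays were Stab1 (1951, 1814 and 1807), Pecam1 (1319, 1174 and 1070) and Clec4g (1504, 1039 and 811.7). Of the 10 LSEC markers, 8 were above the pooled median on each Kupffer array. Tek, an endothelial receptor, read 154.1, 124.1 and 134.9 in Kupffer cells and 4887, 4401 and 3128 in LSEC. For Nr5a2, Kupffer cells were below 1-day HSC by 0.61 (adjusted p = 0.016), under the minimum. With a pseudocount of 1 this difference was 1.06.

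The 9 profiles fell into these same patterns when compared over the 13 arrays. The 7 genes with all hepatocyte arrays on top had Pearson correlations of 0.889 to 0.993 with one another. Cebpa correlated with them at 0.338 to 0.475, Nr5a2 at 0.15 to 0.377, and Cebpa with Nr5a2 at -0.398. These are descriptions over arrays that share populations, so they carry no p-value. The genes most like Hnf4a among 12368 were Cyp3a13 (r = 0.9991), Mlxipl (0.9989) and Cyp3a25 (0.9988). Those most like Foxa3 were Stra6l (0.9991), Gpd1 (0.9984) and Igfbp1 (0.9981). Foxa1 was most like Ugt2b37 (0.9924), Obp2a (0.9924) and Arhgef26 (0.9915), and Foxa2 most like Patj (0.9808), Kif21a (0.9803) and Spr (0.9751). Onecut1 was nearest to Cyp17a1 (0.9936), Mbl1 (0.993) and Bhmt2 (0.9921), Onecut2 to Pemt (0.9962), Gulo (0.9921) and Lcat (0.9918), and Prox1 to Obp2a (0.9843), Znrd1as (0.981) and Ugt2b37 (0.98). Several of these encode liver enzymes, such as the cytochromes P450 Cyp3a13 and Cyp17a1 and the vitamin C synthesis enzyme Gulo.

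The neighbours of the remaining pair were of another kind. Cebpa was most like Acp5 (r = 0.9898), Shtn1 (0.9865) and the complement component C6 (0.9854). Acp5, a tartrate-resistant acid phosphatase of macrophages and osteoclasts, averaged 6331 in Kupffer cells, 2661 in hepatocytes, 502.5 in 1-day HSC and 267.4 in LSEC, the same order as Cebpa. Nr5a2 was most like Upp1 (r = 0.9697), Pcdh1 (0.9608) and Abhd17b (0.96). Upp1, uridine phosphorylase, averaged 1791 in LSEC, 1066 in hepatocytes, 325.9 in 1-day HSC and 150.2 in Kupffer cells, the same order as Nr5a2.

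In culture, no gene of the set was called between HSC at 1 day and the merged 7- and 14-day arrays, where 5.52% of all 12368 genes were higher and 4.27% lower. By limma 3 of 9 had an unadjusted p below 0.05 and 2 had an adjusted p below it, Cebpa and Hnf4a, beside 44% of all genes. Cebpa read 410.0 and 444.6 at day 1, 209.9 at day 7 and 298.0 at day 14. Both later arrays were below both earlier ones, with a difference of -0.61 (SE 0.134, adjusted p = 0.0026). Hnf4a read 354.1 and 232.3 at day 1, 197.8 at day 7 and 190.4 at day 14, a difference of -0.42 (SE 0.143, adjusted p = 0.03). Without the 354.1 array it was -0.19 (adjusted p = 0.34).

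Onecut2 read 373.2 and 299.5, then 263.2 and 248.4, and its difference was -0.30 (adjusted p = 0.074, 95% interval -0.58 to -0.02). Nr5a2 read 174.4 and 148.5, then 103.1 and 88.96, with a difference of -0.45 (adjusted p = 0.11, interval -0.91 to 0.01). For both, the later arrays lay below the earlier ones but the adjusted test was missed. The differences of Foxa1 (0.16), Foxa2 (0.10), Foxa3 (-0.06), Onecut1 (-0.10) and Prox1 (-0.22) were smaller, with adjusted p of 0.34 to 0.78. In all 7 of 9 differences were negative. Between day 7 and day 14, single arrays without a test, no gene of the set differed by 1 or more, as 1.56% of all genes did, and the largest difference was that of Cebpa, 0.38. Over the same days the hepatocyte marker sum was 23070 and 12840 at day 1, 4245 at day 7 and 3984 at day 14 (of which Trf made up 2672 and 2484 at the later days), the Kupffer marker sum 3998 and 5292, then 3114 and 4569, and the LSEC marker sum 12000 and 10920 (of which Cdh5 made up 6552 and 5427), then 1988 and 2411. Their part in these differences was not tested.

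**Figure D3:**
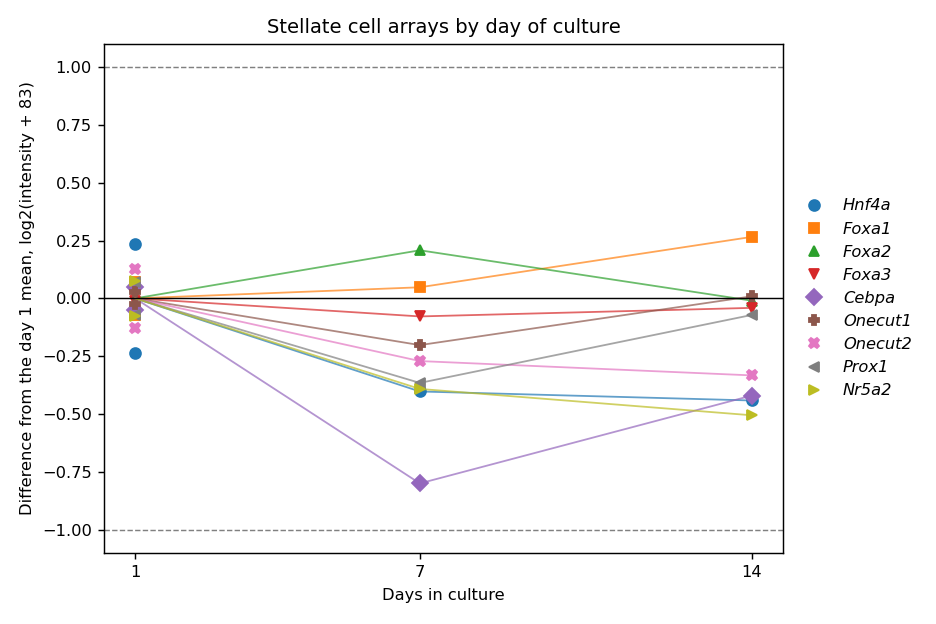
Difference of each HSC array from the day 1 mean of the same gene, on the log2(intensity + 83) scale, by days in culture. Each symbol is a gene, with both day 1 arrays shown and 1 array at each later day, and dashed lines mark the minimum of 1. All points lie within 1 of the day 1 mean, and Cebpa lies lowest at day 7.

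Relatives of these factors were described in the same way. Of 16 listed genes from the same families, 11 passed the filter. Of these, 2 were called higher in hepatocytes than in Kupffer cells, 2 than in LSEC and 4 than in 1-day HSC, while 0, 1 and 2 were lower. Of all genes, 12%, 10% and 10.1% were higher and 13.7%, 12.5% and 12.3% lower. The relatives' median differences were 0.15, 0.21 and 0.44, beside 0.02, -0.10 and -0.08 over all genes. Of the 11, 1 was called higher than in each other population, beside 6.8% of all genes. It was Foxq1, a forkhead gene, at 1866 ± 539 (SD, n = 3) in hepatocytes. Foxq1 averaged 221.6, 196.2 and 175.0 in Kupffer cells, LSEC and 1-day HSC (differences 2.64, 2.76 and 2.88). Foxf1, the forkhead gene of liver mesenchyme, ran the other way, at 5347 ± 126 (SD, n = 2) in 1-day HSC and 123.7 in hepatocytes (difference -4.72, limma adjusted p = 9.4e-11). Foxp1 was lower in hepatocytes than in LSEC (-1.11) and 1-day HSC (-1.49).

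Cebpb, the inflammation-responsive relative of Cebpa, had its highest mean in hepatocytes rather than Kupffer cells. It averaged 1426 ± 136 in hepatocytes, 881.3 ± 6.34 in Kupffer cells and 447.8 ± 132 in LSEC (SD, n = 3 each), and 410.0 ± 66.8 (SD, n = 2) in 1-day HSC. It was called against LSEC (1.53, limma adjusted p = 1.2e-06) and 1-day HSC (1.62, adjusted p = 2.5e-06). Against Kupffer cells its difference of 0.64 was under the minimum of 1. Hepatocyte and Kupffer arrays thus stood in opposite orders for Cebpa and Cebpb, though neither difference was called.

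Of 25 other liver transcription factors and cofactors, 22 were tested. In hepatocytes 9 were called higher than in Kupffer cells, 9 than in LSEC and 8 than in 1-day HSC, while 2, 2 and 1 were lower, beside the same shares of all genes as for the relatives. Their medians were 0.87, 0.55 and 0.43, again beside 0.02, -0.10 and -0.08. Of the 22, 5 were called higher than in each other population, beside 6.8% of all genes. They were Mlxipl, the carbohydrate-sensing factor ChREBP (differences 3.05, 3.16 and 2.81), Ppara, the fatty acid oxidation receptor (2.54, 2.63 and 2.43), Creb3l3, Nr1i2 (the xenobiotic receptor PXR) and Ppargc1a. In this list, too, some regulators peaked elsewhere. Nr1h3, the oxysterol receptor LXR alpha, averaged 5105 ± 85.3 in Kupffer cells and 482.3 ± 85.7 in hepatocytes (SD, n = 3 each; difference -3.21, limma adjusted p = 2.7e-11). Gata6 was higher in hepatocytes than in Kupffer cells (2.99) and LSEC (2.80) but differed from 1-day HSC by 0.16 (adjusted p = 0.22).

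Of the 22, 1 was called lower in HSC culture, near the share of all genes (4.27%), and none higher. It was Nr1h4, the bile acid receptor FXR, which is named for that value. It read 380.2 and 702.5 at day 1, 163.5 at day 7 and 96.80 at day 14 (difference -1.52, limma adjusted p = 8.4e-05). Its 1-day arrays lay around or above the hepatocyte arrays, which ranged from 297.6 to 394.3.

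**Figure D4:**
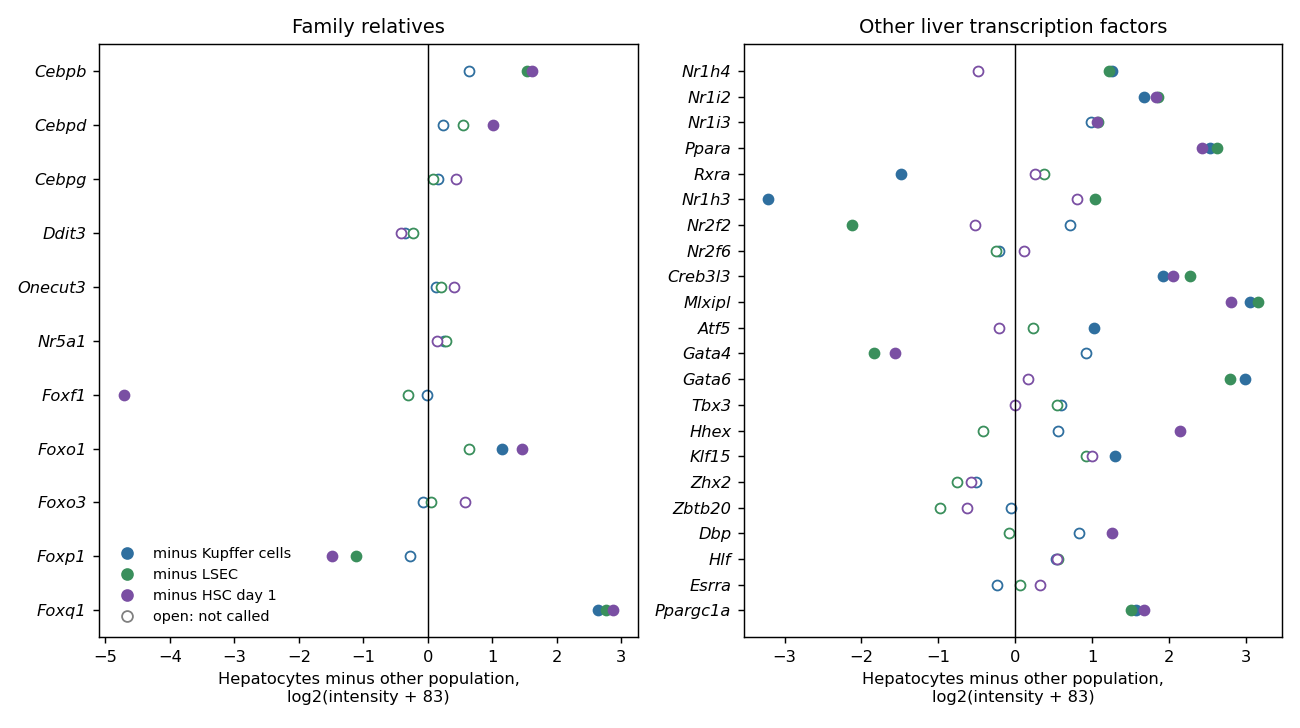
Difference between hepatocytes and each other population, on the log2(intensity + 83) scale, for the tested relatives of the 9 genes (left) and for other liver transcription factors (right). Filled points were called and open points were not. Foxf1 against 1-day HSC lies farthest left at -4.72, and Mlxipl and Ppara lie to the right against all 3 populations.

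Known target genes of the factors were measured beside them. Of 29 listed targets of HNF4A, FOXA, CEBPA, ONECUT1 and NR5A2, 24 were tested and 22 were called higher in hepatocytes against all 3 other populations (6.8% of all genes), with none lower by the same rule. The filter on low values could be passed through the hepatocyte arrays alone, so this count is a description, and the lists share members. Median differences were 4.28, 4.86 and 3.41 against Kupffer cells, LSEC and 1-day HSC. By factor, 9 of 10 tested HNF4A targets were called higher than in each, 7 of 7 for FOXA, 9 of 9 for CEBPA, 4 of 4 for ONECUT1 and 3 of 5 for NR5A2. The largest differences were those of Hamp, the iron hormone hepcidin, at 6.29 against LSEC, of Alb (albumin) at 5.92, of Tat (tyrosine aminotransferase) at 5.88 and of Ttr (transthyretin) at 5.81. All 9 CEBPA targets were called higher in hepatocytes than in Kupffer cells, where Cebpa itself was highest, with a median difference of 5.09. Between Kupffer cells and LSEC, 1 of these 9 was called higher in Kupffer cells (9.54% of all genes) and none lower. The CEBPA list was written with earlier results known, and Alb, Cps1 and Tat on it were also hepatocyte markers. These counts therefore rest on the choice of list, and CEBPA targets particular to Kupffer cells were not tested.

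The targets that were not called were both on the NR5A2 list, and Cyp8b1 was on the HNF4A list as well. Cyp8b1, a bile acid synthesis enzyme, was higher in hepatocytes by 0.83, 0.90 and 0.65, under the minimum of 1. Scarb1, the HDL receptor, differed by -0.97 from Kupffer cells, 0.40 from LSEC and -0.12 from 1-day HSC. Cyp7a1, which catalyses the rate-limiting step from cholesterol to bile acids, and the sterol transporter gene Abcg5 were called, at 2.28 and 2.31 against Kupffer cells. In LSEC, where Nr5a2 was highest, Cyp7a1 and Abcg5 were lower than in hepatocytes by 2.29 and 2.15. This list, too, was written with earlier results known, and NR5A2 targets particular to LSEC were not tested.

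In HSC culture 8 of the 24 targets fell and none rose from day 1 to days 7 and 14, where 4.27% of all genes fell. The largest falls were in Alb (-5.26, limma adjusted p = 4.1e-07), Ttr (-2.43, adjusted p = 2e-05), Apoc3 (-2.23, adjusted p = 2.2e-05) and Apoa2 (-2.22, adjusted p = 1.8e-05), which encode secreted plasma proteins. Alb read 8855 and 6285 at day 1, 114.2 at day 7 and 112.8 at day 14, beside 18570 ± 100 (SD, n = 3) in hepatocytes. Cps1, the urea cycle enzyme, read 144.6 and 146.4 at day 1 and 107.9 and 110.2 later, beside 8293 ± 495 (SD, n = 3) in hepatocytes. The hepatocyte marker sum, which was lower at the later days as given above, includes Alb, Ttr and Apoa2. Its part in these falls was not tested.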

How the data were processed

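RNA from the 13 samples was hybridised to Affymetrix mouse gene arrays, 1 sample per array. The deposited values are linear intensities (10.6 to 28854, with array medians of 216.5 to 232.9), and MAS5 5.0 and Affymetrix Expression Console are listed, per the submitters' processing notes, with no role or order. How background and normalization were handled is not given in the sources used here. No further normalization was applied. Of 25194 probe sets, 21181 carried a single gene symbol in the platform annotation. The probe set with the highest mean represented each gene. Genes above the pooled median (224.5) on at least 2 arrays were tested. The pseudocount of 83 is the pooled 20th percentile. Population comparisons were fitted with limma 3.58.1 (R 4.3.3) on 11 arrays (12081 genes), and HSC culture, with days 7 and 14 merged, on all 13 (12368 genes). P-values were adjusted by Benjamini-Hochberg over all genes of each comparison. The residual degrees of freedom were 7 and 8. The scripts were tested on simulated data. Arrays of a group correlated at 0.9859 to 0.9957 over all probe sets. The number of arrays limits precision, and the values carry no detection calls.

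Every one of the 9 genes is reported whatever its value. For each, the 3 genes of highest Pearson correlation over 13 arrays are named, and from each further list up to 4 called genes by size and up to 2 not called, with genes behind counts of 5 or fewer named after their values were seen. The members and lists were chosen with earlier results of these data known. Promoter windows are from RefSeq, matched by gene symbol, with an entry for 8 of 9 genes. The alternatives tried were other pseudocounts, no filter, quantile normalization, other treatment of probe sets, a trended prior, a replicate block, HSC arrays alone, and leaving out each array.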

Additional observations from a re-analysis of the deposited data

How the results depend on the processing

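Of the alternatives run on the 9 genes' differences, 576 kept direction and call, 8 passed where the reported value had not, 4 no longer passed and 2 changed sign. The sign changes were uncalled values in HSC culture without the day 7 array, Foxa2 at -0.01 and Onecut1 at 0.01, and without the day 14 array these were 0.21 and -0.20. With a pseudocount of 1, the number of the 9 genes called between Kupffer cells and 1-day HSC was 2 rather than 1, with Nr5a2 added at -1.06. Leaving out each array in turn gave 7 to 9 genes called between hepatocytes and LSEC, with 9 when LSEC replicate 3 was left out. It gave 7 to 7 against Kupffer cells and against 1-day HSC, and 6 to 6 higher in hepatocytes against all 3 other populations. Between Kupffer cells and LSEC it gave 2 to 2, between Kupffer cells and 1-day HSC 1 to 1, between LSEC and 1-day HSC 1 to 1, and in culture 0 to 0. Where that left a group with 1 array, the lone array was assumed to vary like the other groups. No pairing by replicate number was visible: over 15 same-numbered pairs, deviations correlated at -0.117 to 0.119, with 2 over 0.1. Pairs with other numbers ran from -0.128 to 0.131. The deviations of the 2 arrays of 1-day HSC are exact opposites, so their pairs are not independent. These correlations cannot tell whether same-numbered arrays shared animals. With the replicate number as a block, all calls on the 9 genes stayed as they were in the population comparisons, for example Nr5a2 at -0.72 (limma adjusted p = 0.0027) between hepatocytes and LSEC and 7 genes called between hepatocytes and Kupffer cells. The block was not run for culture. The low intensities of Foxa1, Foxa3, Onecut1 and Prox1 outside hepatocytes and of Nr5a2 in Kupffer cells lie where fold changes depend on the pseudocount.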
